A study of Mus musculus with 40 samples.

Results

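The 9 genes described here encode oxidising enzymes that are not cytochromes P450, and 1 hydrolase. The oxidising enzymes are the flavin-containing monooxygenases Fmo1, Fmo2, Fmo4 and Fmo5, the aldehyde oxidases Aox1 and Aox3, and the monoamine oxidases Maoa and Maob. The hydrolase is the soluble epoxide hydrolase Ephx2. The probe sets of the 9 genes were taken by gene symbol from the annotation of the array, by a rule that uses no measured value. The 9 genes themselves were chosen with earlier results of these data known. They were measured by 16 of the 45037 probe sets on the array: 5 for Fmo2, 3 for Fmo5, 2 for Maoa and 1 for each of the other 6 genes. RNA of 20 male B6C3F1/Crl mice, the cross of a C57BL/6 male with a C3H/He female, was hybridised to 40 arrays, 1 liver and 1 kidney array per mouse. The phenobarbital (PB) group of 10 mice drank water with 0.05% (w/v) PB for 28 days, and the control group of 10 mice had no PB in its water. All mice were 29 to 32 days old on arrival, had 5 days to settle before dosing and were killed on the last day of dosing. The 4 groups are thus PB liver, control liver, PB kidney and control kidney, with n = 10 each. Whole tissue was used, so fewer cells of one type and less RNA per cell cannot be told apart in any value below.

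Flavin-containing monooxygenases sit in the endoplasmic reticulum and use NADPH and a bound flavin to add oxygen to the nitrogen or sulphur of drugs and amines. Aldehyde oxidases are cytosolic enzymes that carry a molybdenum cofactor and a flavin and oxidise aldehydes and nitrogen-containing rings. Monoamine oxidases are flavoenzymes of the outer mitochondrial membrane that deaminate neurotransmitters and dietary amines, and soluble epoxide hydrolase opens the epoxides of fatty acids to diols. PB is the classical inducer of hepatic drug metabolism and acts through the constitutive androstane receptor (CAR), a nuclear receptor that is abundant in hepatocytes.

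Values are MAS5 signals, a linear measure of probe brightness that the authors had scaled to the same trimmed mean on each array, so that a signal may be compared between arrays but not between probe sets. Array medians lay between 30.0 and 37.2. Cyp2b10, the best known CAR target gene, had a signal of 9731 to 12774 in PB livers, against 15.7 to 49.5 in control livers, so that the groups lay far apart. Control liver 5 carried kidney transcripts, with a Kap signal of 1230.2 against a control liver median of 9.25 and 221.5 in the next highest, control liver 3, and also had the highest Slc34a1 (163.6) and Umod (122.9) of that group. Fmo1 and Fmo2, which had higher signals in kidney than in liver, were at 1600.0 and 48.4 in control liver 5, inside the range of the other control livers. Among PB livers, Kap was highest in PB liver 17, at 234.0 against a PB liver median of 7.65, as were Slc34a1 (54.7) and Umod (37.3). Its Slc12a1 was 25.7, against a PB liver median of 12.05. Its Aqp2 of 6.6 was the lowest of the PB livers, whose median was 30.95. PB liver 17 also had the highest Fmo2 signal of its group, 77.6 (1435459_at), while its Fmo1 signal of 2237.0 lay inside the range of the other PB livers. Tests in a tissue covered the probe sets whose mean signal reached 50 in its PB or its control group, and a probe set was called where limma gave a Benjamini-Hochberg adjusted p under 0.05 over all probe sets tested.

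In the liver, Fmo1, Fmo5 and Aox1 were higher in PB mice, Aox3 was lower, and Ephx2, Maoa, Maob, Fmo4 and Fmo2 were not called. Of the 16 probe sets, 11 were tested in liver, of which 5 were called higher and 1 lower. Among all 18981 probe sets tested in liver, 5.88% were called higher and 6.43% lower, 12.3% in either direction. The median log2 difference of the 11 probe sets was 0.44, beside -0.01 over all probe sets tested. The called changes lay between 0.83-fold and 1.67-fold. By the thresholds of the study's methods, a p of at most 0.001 and means that differ by at least 1.5 times, here with limma's unadjusted p, 3 of the 11 passed (Fmo1, Aox1 and Fmo5 1440899_at), beside 2.4% of all probe sets tested.

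**Figure D1:**
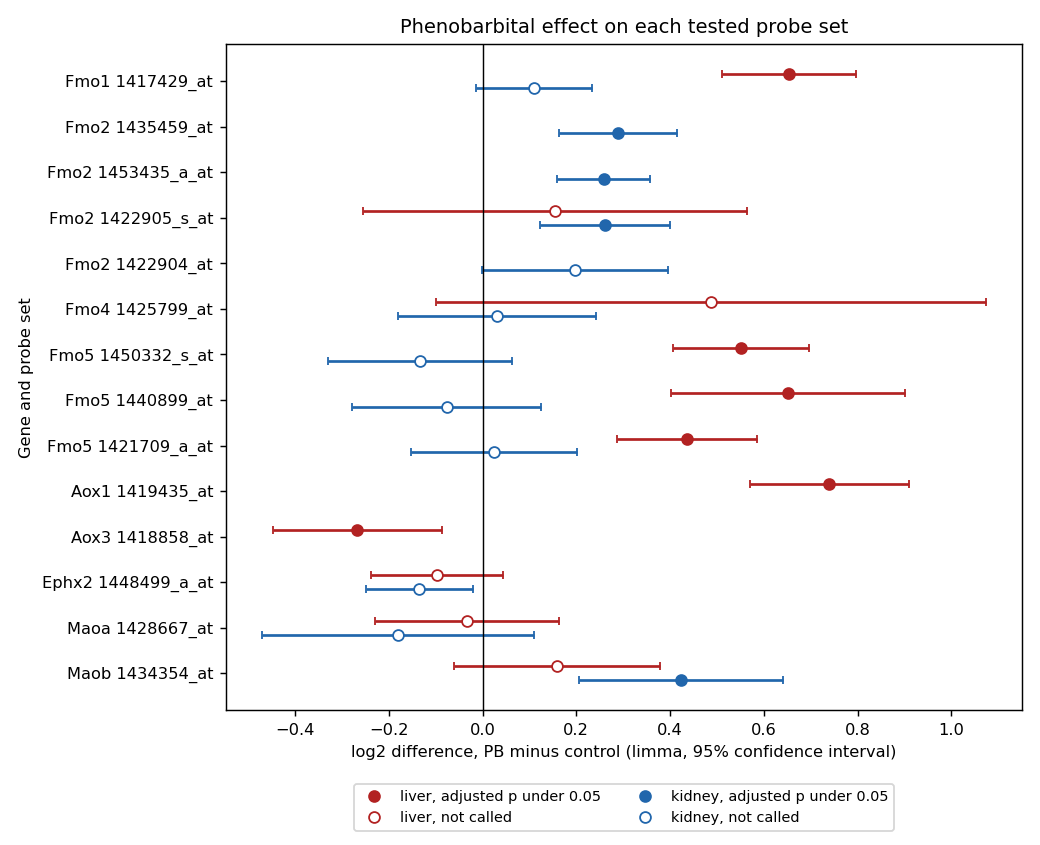
The log2 difference between PB and control mice for each tested probe set, with its 95% confidence interval from limma, in liver (red) and kidney (blue), where filled points had an adjusted p under 0.05. In liver the Fmo1, Fmo5 and Aox1 intervals lie well to the right of 0 and the Aox3 interval to the left, and in kidney the filled points are 3 Fmo2 probe sets and Maob.

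Fmo1 (1417429_at), the flavin monooxygenase for which mouse liver and kidney are typical sites, had a signal of 1895 to 2338 in PB livers with a median of 2224, against 1110.0 to 1676 with a median of 1399.55 in control livers. The groups did not overlap: the lowest PB liver, of animal 12, stood above the highest control liver, of animal 1. The means were 2177 ± 146 in PB livers and 1393 ± 192 in control livers (SD, n = 10 each), a log2 difference of 0.65 (SE 0.07) or 1.57-fold (95% confidence interval 1.42 to 1.74), with a limma adjusted p of 5.02e-07. PB livers standing above all control livers were found for 1.02% of the probe sets tested in liver, and for Fmo1 and Aox1 among the 11, and PB livers below all control livers for 0.337% and for 0 of the 11.

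Fmo5, an unusual flavin monooxygenase that inserts oxygen next to carbonyl groups, was higher in PB livers with each of its 3 probe sets. The leading probe set, defined here as the one with the highest mean over all 40 arrays (1450332_s_at), had a signal of 3597 to 5059 in PB livers with a median of 4843, against 2677 to 3963 with a median of 3088 in control livers. Of the 10 PB livers, 9 were above every control liver, and the exception was animal 17, which was also the lowest PB liver with the other 2 Fmo5 probe sets. The liver of animal 17 had the highest Kap signal of the PB livers, 234.0, and the part of kidney tissue in its Fmo5 values was not tested. The log2 difference was 0.55 (SE 0.07, adjusted p 7.36e-06), a fold of 1.47 with an interval of 1.33 to 1.62. Probe set 1440899_at differed by 0.65 on the log2 scale (1512 ± 298 in PB livers and 959.6 ± 182 in control livers, adjusted p 7.27e-04), and probe set 1421709_a_at by 0.44 (977 ± 123 in PB livers and 719 ± 62.7 in control livers, adjusted p 2.18e-04). The first of the 3 carries the suffix that the manufacturer gives to probe sets that may match related transcripts, and the 2 without that suffix gave the same direction.

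The aldehyde oxidase genes Aox1 and Aox3, which follow each other on mouse chromosome 1, were called in opposite directions in the liver. Aox1 (1419435_at) had a signal of 1700.3 to 2150 in PB livers with a median of 1807, against 774 to 1417 with a median of 1087 in control livers. All 10 PB livers were above all 10 control livers. With means of 1845.5 ± 133 in PB livers and 1118 ± 193 in control livers, the log2 difference was 0.74 (SE 0.08, adjusted p 9.55e-07), or 1.67-fold with an interval of 1.48 to 1.88, the largest of the 11 tested probe sets. Aox3 (1418858_at), the aldehyde oxidase typical of rodent liver, had a signal of 3723 to 6263 in PB livers with a median of 5039, against 4183 to 6995 with a median of 6133 in control livers. The groups overlapped widely, and 9 of the 10 PB livers were below the control median. The means were 5010 ± 720 in PB livers and 6022 ± 788 in control livers, a log2 difference of -0.27 (SE 0.09, 0.83-fold, interval 0.73 to 0.94) with an adjusted p of 0.0474, just inside the threshold. The Aox3 call was lost when any 1 of 15 of the 20 livers was left out, with adjusted p between 0.00538 and 0.0858 over the 20 fits. The lowest of these values was that without control liver 2, whose Aox3 signal of 4183 was the lowest of its group.

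**Figure D2:**
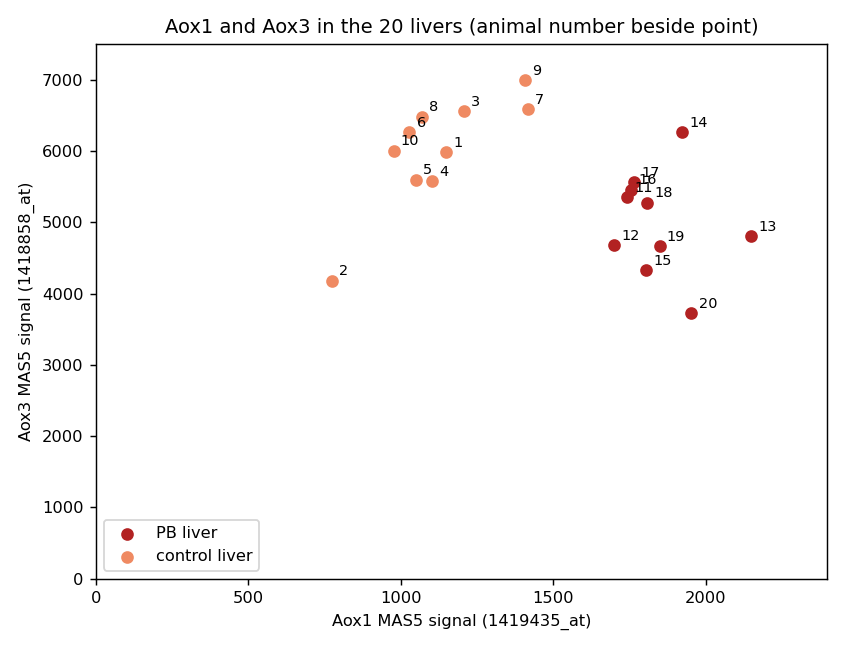
MAS5 signal of Aox3 (vertical axis) against that of Aox1 (horizontal axis) in each of the 20 livers, with PB livers in red, control livers in orange and the animal number beside each point. PB livers lie at 1700.3 or more on the Aox1 axis and control livers at 1417 or less, whereas on the Aox3 axis the groups share the range from 4183 to 6263.

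Because the 2 genes are neighbours with opposite calls, the 90 bases before the annotated start of each gene are shown, from RefSeq on mouse build GRCm38.p6, both on the plus strand, in lower case with each CG dinucleotide in capitals. The Aox1 stretch is chr1:58029719-58029808 and the Aox3 stretch chr1:58113045-58113134. For Aox1 the RefSeq promoter table uses a start site further into the gene, at position 58029969, than the annotated gene start at 58029809.
Aox1: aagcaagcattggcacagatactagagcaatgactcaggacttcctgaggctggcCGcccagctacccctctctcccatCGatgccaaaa
Aox3: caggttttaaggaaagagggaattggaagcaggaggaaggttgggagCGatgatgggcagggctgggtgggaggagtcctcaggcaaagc
The Aox1 stretch had 54.4% G and C with 2 CG dinucleotides, and the Aox3 stretch 56.7% with 1. Promoter windows of 300 bases were found in the RefSeq table for 6 of the 9 genes, as 7 windows. Fmo1, Ephx2 and Maob had no window and were not searched. The nuclear receptor motif AGGTCA, searched on both strands, was in 16.3% of all 32851 promoter windows and in 2 of the 7, once in Fmo4 (as TGACCT) and once in 1 of the 2 Fmo2 windows. A direct repeat of this motif with 4 bases between the copies was in 0.0152% of all windows, and the core of the antioxidant response element, TGACNNNGC, in 12.4%. Neither of these, also searched on both strands, was in the 7 windows, which says only that these letters are not in these stretches.

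The remaining genes were not called in liver. Ephx2 (1448499_a_at) had a mean signal of 5051 ± 477 in PB livers and 5415 ± 612 in control livers. All 10 PB livers were below the control median of 5681, yet 9 of them lay within the range of the control livers, which reached down to 4258, and the log2 difference was -0.10 (interval -0.24 to 0.04, adjusted p 0.380). Maob (1434354_at), the isoform that prefers phenylethylamine, had 2637 ± 517 in PB livers and 2345 ± 347 in control livers, with 4 of the 10 PB livers above all control livers and 5 below the control median. Its log2 difference was 0.16 (interval -0.06 to 0.38, adjusted p 0.356). Maoa (1428667_at), the isoform that deaminates serotonin and noradrenaline, had 137 ± 20.3 in PB livers and 140 ± 20.2 in control livers, a log2 difference of -0.03 (interval -0.23 to 0.16, adjusted p 0.855). Fmo4 (1425799_at), a little studied member of the family, was dim, with 63.2 ± 10.9 in PB livers and 50.6 ± 19.4 in control livers, and its log2 difference of 0.49 had an interval of -0.10 to 1.07 (adjusted p 0.280). The interval of Fmo4 does not leave out a change as large as that of Aox1, but this estimate leaned on dim signals. Control liver 9 had an Fmo4 signal of 7.9. With signals under 20 set to 20 the Fmo4 log2 difference was 0.35, and it was 0.21 to 0.58 when each liver was left out in turn. Of Fmo2, 1 probe set of 5 passed the filter in liver (1422905_s_at, 60.9 ± 22.9 in PB livers and 53.3 ± 15.1 in control livers, adjusted p 0.666). The other 4 Fmo2 probe sets and the second of Maoa had group means between 16.5 and 47.3 and were not tested there.

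Cell type markers were read beside these liver results. Of the 5 hepatocyte markers, all tested, 0 were called by limma (log2 differences between -0.08 and 0.11), and their summed signal was 78379 to 118256 in PB livers against 80991 to 115534 in control livers. Markers of stellate cells and fibroblasts fell, with 4 of 4 tested (Lrat, Des, Pdgfrb and Dcn) lower in PB livers, and a summed signal of 1240 to 1721 against 1675 to 2183 in control livers. Most of this sum was the signal of Dcn (1247 ± 143 in PB livers and 1541 ± 158 in control livers). Of 3 tested endothelial markers, Stab2 was lower (404 ± 33.5 in PB livers and 525 ± 56.1 in control livers). The part of these other cells in the member results was not tested.

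In the kidney, Fmo2 and, at a low signal, Maob were higher in PB mice, and the genes that moved in the liver were not called. Of the 16 probe sets, 12 were tested in kidney, of which 4 were called higher and 0 lower by limma, where 1.79% of the 19229 probe sets tested in kidney were called higher and 1.47% lower, 3.26% in either direction. At an unadjusted p under 0.05 no tested member other than Ephx2 was lower. No kidney group stood wholly above or below the other for any of the 12, and 0 passed the thresholds of the study's methods, where 0.104%, 0.0572% and 0.504% of all probe sets tested in kidney did so. The median log2 difference of the 12 probe sets was 0.07, beside 0.0040 over all probe sets tested. Of the 4 called, all but Maob measure Fmo2. With 1 probe set per gene, chosen as in liver, 2 of 7 tested were called higher and 0 lower. The median log2 difference of these 7 was 0.03. Without the kidney of PB animal 20 the count of called probe sets was 2 rather than 4, and with all 40 arrays in 1 fit it was 1, Maob.

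Fmo2, known as the lung form of the family, had a signal of 1312 to 1887 in PB kidneys with a median of 1642, against 1128 to 1604 with a median of 1322 in control kidneys, with its leading probe set (1435459_at). The groups overlapped, but 6 of the 10 PB kidneys were above every control kidney and 9 of 10 above the control median. The means were 1636 ± 167 in PB kidneys and 1338 ± 125 in control kidneys, a log2 difference of 0.29 (SE 0.06, adjusted p 0.0102), or 1.22-fold with an interval of 1.12 to 1.33. Probe set 1453435_a_at gave 0.26 (1068 ± 68.6 in PB kidneys and 894 ± 73.4 in control kidneys, adjusted p 0.00393), with all 10 PB kidneys above the control median of 871. Probe set 1422905_s_at, which may match related transcripts by its suffix, gave 0.26 as well (1001 ± 119 in PB kidneys and 832 ± 74.8 in control kidneys, adjusted p 0.0325), a call that was lost when any 1 of 10 kidneys was left out. Probe set 1422904_at had 698 ± 122 in PB kidneys and 606 ± 95.2 in control kidneys and was not called (log2 difference 0.20, adjusted p 0.281). The fifth Fmo2 probe set, 1454005_at, had group means of 16.5 to 20.4 in both tissues and measured little.

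Maob (1434354_at) had a signal of 58.3 to 102.3 in PB kidneys with a median of 67.25, against 42.4 to 67.7 with a median of 49.25 in control kidneys. All 10 PB kidneys were above the control median and 5 were above every control kidney. The means were 70.5 ± 13.1 in PB kidneys and 52.3 ± 7.76 in control kidneys, a log2 difference of 0.42 (SE 0.11, 1.34-fold, interval 1.15 to 1.56, adjusted p 0.0273). Both means lay near the filter of 50, and the call was lost without PB animal 20 (adjusted p 0.0508).

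Fat cell markers were higher in PB kidneys as well. Of 3 tested, 2 were called, Adipoq (335 ± 305 in PB kidneys and 59.2 ± 40.7 in control kidneys) and Fabp4 (2250 ± 1422 in PB kidneys and 935 ± 212 in control kidneys), and the summed signal of the list was 929 to 6727 in PB kidneys against 781 to 1434 in control kidneys. Most of this sum was the signal of Fabp4. PB kidneys 12, 15 and 17 had the highest Adipoq, at 956, 800.4 and 414, and their Maob signals of 102.3, 76.7 and 73.6 were among the 4 highest of their group. Without these 3 kidneys, a choice made after the data were seen, Maob differed by 0.31 on the log2 scale and was not called (adjusted p 0.143), with the other 7 PB kidneys at 58.3 to 75.7, all above the control median. The Fmo2 differences were not smaller without them, at 0.32 (adjusted p 0.00833), 0.30 (adjusted p 0.00388) and 0.35 (adjusted p 0.00341) for the 3 called probe sets in the order given above. The leading Fmo2 signals of kidneys 12, 15 and 17 were 1312, 1887 and 1536, which include the lowest and the highest of the PB kidneys. Leaving them out did not remove the fat cell difference. Adipoq was 55.8 to 277.8 in the other 7 PB kidneys, against 3.2 to 115.6 in control kidneys. With fewer arrays, 310 probe sets were called over the whole table, beside 627 with all kidneys. The part of fat cells in the Maob and Fmo2 results was not tested.

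**Figure D3:**
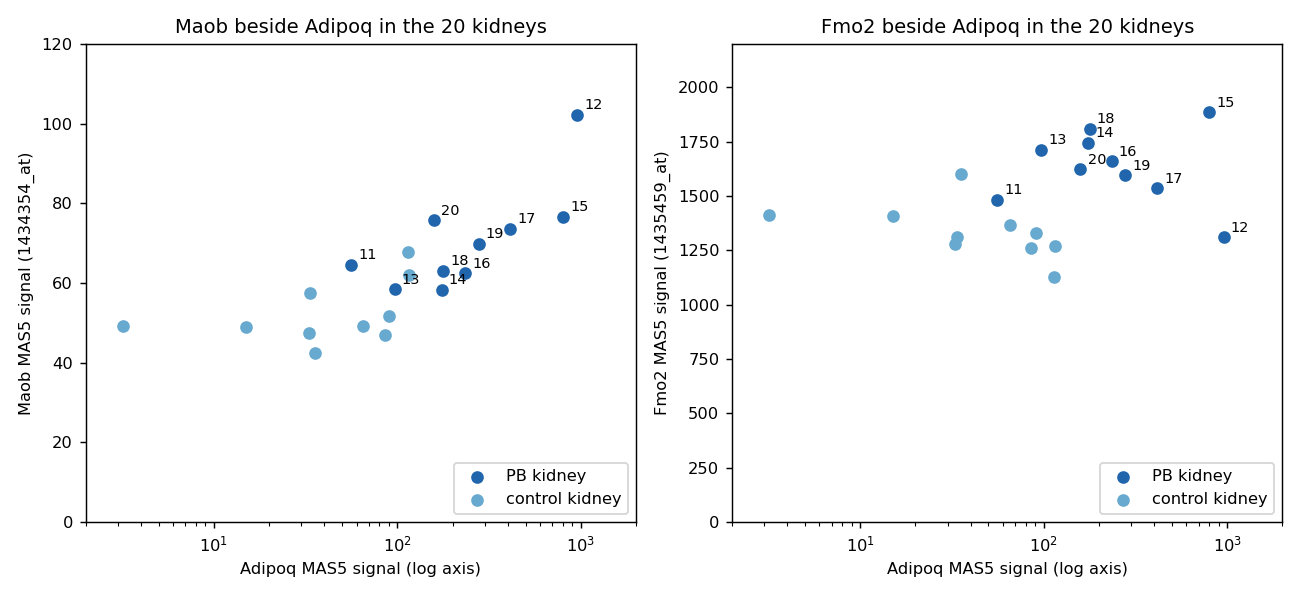
MAS5 signal of Maob (left) and of the leading Fmo2 probe set (right) against that of the fat cell marker Adipoq on a log axis in each of the 20 kidneys, with PB kidneys in dark blue and numbered by animal and control kidneys in light blue. Kidneys 12 and 15, with the highest Adipoq and Maob signals, have the lowest and the highest Fmo2 signal of the PB kidneys.

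The other members did not pass the test in kidney. Fmo1 had 4463 ± 372 in PB kidneys and 4145 ± 454 in control kidneys (log2 difference 0.11, interval -0.01 to 0.23, adjusted p 0.350), and 8 of the 10 PB kidneys were above the control median. The leading Fmo5 probe set had 868 ± 101 in PB kidneys and 962 ± 184 in control kidneys (log2 difference -0.13, interval -0.33 to 0.06, adjusted p 0.490). Ephx2 had 3266 ± 239 in PB kidneys and 3593 ± 349 in control kidneys (log2 difference -0.13, interval -0.25 to -0.02, adjusted p 0.194), with 9 of the 10 PB kidneys below the control median of 3619. Maoa had 143 ± 35.9 in PB kidneys and 157 ± 21.0 in control kidneys (adjusted p 0.538), and Fmo4 had 110.3 ± 22.1 in PB kidneys and 107 ± 13.6 in control kidneys (adjusted p 0.908). Aox1 and Aox3 were below the filter in both kidney groups.

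The PB effect was compared between the 2 tissues with an interaction term over all 40 arrays. Of the 14 probe sets tested, 4 had a larger effect in liver than in kidney and 0 a smaller one, where 3.13% of 21866 probe sets were called in the first direction, 3.08% in the second and 6.21% in either. They were Fmo1, with a difference of the log2 effects of 0.54 (SE 0.09, adjusted p 1.14e-04), and the 3 Fmo5 probe sets, with 0.68 (adjusted p 2.33e-04), 0.73 (adjusted p 0.00324) and 0.41 (adjusted p 0.0224). The last of these was lost when arrays were centred on their medians (adjusted p 0.0773). The Fmo2 effect, called in kidney, was not shown to differ from that in liver, where most Fmo2 signals were below the filter (leading probe set -0.58, SE 0.32, adjusted p 0.320), nor was that of Maob (-0.26, SE 0.15, adjusted p 0.328). For Aox1 the difference was 0.25 (SE 0.31, adjusted p 0.711) and depended on the treatment of dim signals: with signals under 20 set to 20 it was 0.58 (adjusted p 0.00529). Aox3 gave -0.16 (adjusted p 0.902).

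Most of these genes had different signals in liver and kidney. Of the 14 probe sets tested, 13 differed between liver and kidney in PB mice and in control mice alike, 7 of them higher in liver and 6 lower. For the same 13, livers and kidneys did not overlap. The background was high: of 21866 probe sets, 79.2% were called in PB mice (34.8% higher and 44.4% lower in liver, 45.2% without overlap) and 78.1% in control mice (35.2% higher and 42.9% lower in liver, 42.5% without overlap). Aox3, Aox1, Maob, Fmo5 and Ephx2 were higher in liver, Fmo1, Fmo2 and Fmo4 were lower in liver, and Maoa was not called.

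**Figure D4:**
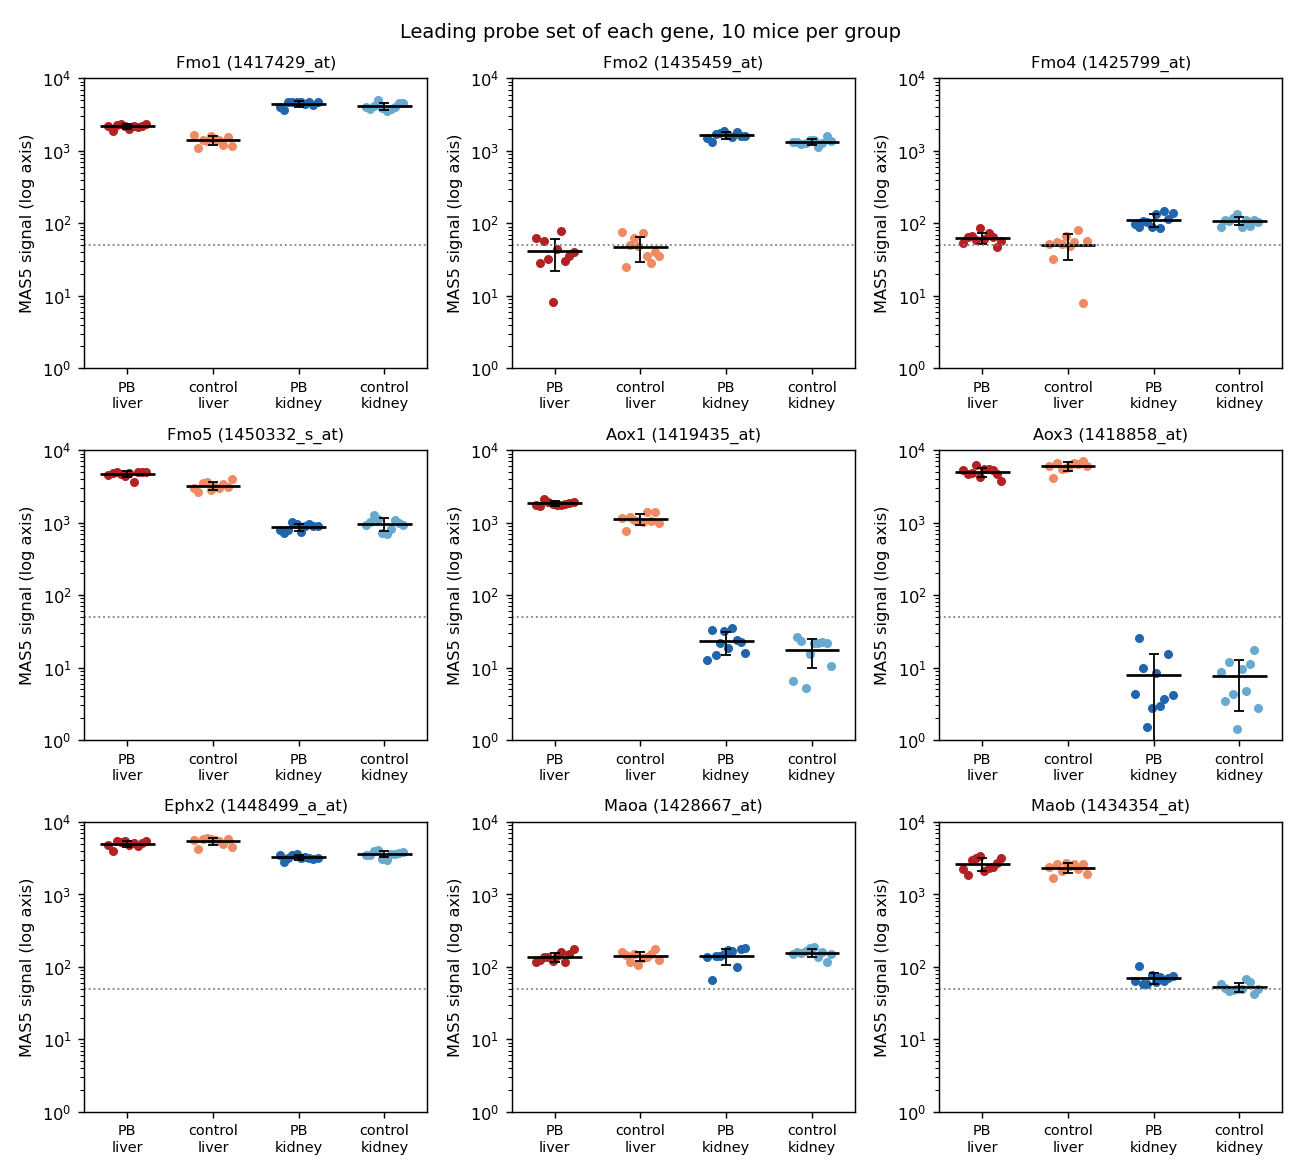
MAS5 signal on a log axis of the leading probe set of each of the 9 genes in the 10 mice of each group, with the mean as a bar and the SD as an error bar, and the filter of 50 as a dotted line. Aox1 and Aox3 drop below the line in all 20 kidneys, Fmo2 stands far above it only in kidney, and the Maoa means lie between 137 and 157 in the 4 groups, while the SD bar of Aox3 in PB kidneys runs off the lower end of the axis.

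Aox3 and Aox1 were measured well above the filter in liver alone. The Aox3 signal was 5010 in PB livers and 6022 in control livers, and 7.83 in PB kidneys and 7.52 in control kidneys, with no kidney above 25.2. Against the filter of 50 taken as the bound for such dim signals, it was at least 100.2-fold higher in liver in PB mice and at least 120.4-fold in control mice. Aox1 was at 22.96 in PB kidneys and 17.5 in control kidneys, with none of the 20 kidneys reaching 50, and was at least 36.9-fold higher in liver in PB mice and at least 22.4-fold in control mice. Maob was 37.4-fold higher in liver in PB mice (2637 against 70.5 in kidney) and 44.8-fold in control mice (2345 against 52.3 in kidney), while Maoa, its neighbour on the X chromosome, was 0.96-fold in PB mice (137 in liver and 143 in kidney, adjusted p 0.893) and 0.89-fold in control mice (140 in liver and 157 in kidney, adjusted p 0.223). The Maoa groups overlapped, with single arrays between 66.4 and 189.8, and the log2 differences of -0.02 in PB mice and -0.17 in control mice were 0.18 in PB mice and 0.01 in control mice after quantile normalization of the arrays.

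Fmo5 was 5.42-fold higher in liver in PB mice (4704 against 868 in kidney, log2 difference 2.44) and 3.34-fold in control mice (3217 against 962 in kidney, log2 difference 1.76). Ephx2 was 1.55-fold higher in liver in PB mice (5051 against 3266 in kidney, log2 difference 0.63) and 1.51-fold in control mice (5415 against 3593 in kidney, log2 difference 0.59), and after quantile normalization of the arrays these log2 differences were smaller, 0.26 in PB mice and 0.24 in control mice, and were still called. The order of its 4 groups was control liver, PB liver, control kidney and PB kidney from high to low, and PB and control groups of a tissue were not shown to differ.

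Fmo1, Fmo4 and Fmo2 are neighbours on chromosome 1, and all were lower in liver. Fmo1 was 2.05-fold higher in kidney than in liver in PB mice (2177 in liver and 4463 in kidney, log2 liver minus kidney -1.03) and 2.97-fold in control mice (1393 in liver and 4145 in kidney, log2 -1.58). The highest PB liver, at 2338, remained below the lowest of the 20 kidneys, at 3592. The leading Fmo2 probe set had 41.5 in PB livers and 47.3 in control livers, against 1636 in PB kidneys and 1338 in control kidneys, which makes kidney at least 32.7-fold higher in PB mice and at least 26.8-fold in control mice against the bound of 50. Fmo4 was 1.75-fold higher in kidney in PB mice (63.2 in liver and 110.3 in kidney) and 2.11-fold in control mice (50.6 in liver and 107 in kidney).

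Certain animals were low for many members at once. Control liver 2 was the lowest of the 10 control livers for the leading probe sets of 6 of the 8 genes with a control liver mean of at least 50: Fmo1, Fmo5, Aox1, Aox3, Ephx2 and Maob. PB liver 12 was the lowest PB liver for 4 of 8 (Fmo1, Aox1, Ephx2 and Maob). PB kidney 12 was the lowest PB kidney for 5 of 7 (Fmo1, Fmo2, Fmo5, Ephx2 and Maoa) and the highest for Maob. How often these arrays were the lowest over all probe sets was not counted, so the counts are not shown to be particular to these genes. Control liver 2 had the highest array median of the control livers (37.0) and PB kidney 12 that of the PB kidneys (34.1). That of PB liver 12 was 34.8, inside the range of its group. Without control livers 2 and 5, a choice made after the data were seen, the same count of 5 probe sets was higher and 1 lower in PB livers, with log2 differences of 0.64 for Fmo1 and -0.34 for Aox3.

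For each gene called in liver, the gene with the most similar log2 signal over the 20 livers was looked up, as a description. Aox1 was closest to Ephx1, the microsomal epoxide hydrolase, with a Pearson r of 0.98 over the 20 livers, 0.783 within PB livers and 0.924 within control livers. Fmo1 was closest to Akr1c19, an aldo-keto reductase (r 0.956, 0.677 within PB livers and 0.906 within control livers), and Fmo5 to Slc9a3r1 (r 0.951, 0.76 within PB livers and 0.847 within control livers). For Fmo1, Abcc3 had the same r at these digits (0.956), so the values do not single out 1 partner. All of these partners were themselves higher in PB livers, so the values over the 20 livers share the difference between the groups. Aox3 was closest to Fbxw5, at a lower r of 0.816.

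Related enzymes outside the 9 genes were read from lists. Ephx1 was higher in PB livers without overlap (6026 ± 496 in PB livers and 3216 ± 575 in control livers, log2 difference 0.92, SE 0.08, adjusted p 1.87e-08), where Ephx2 was not called. Of 4 other epoxide hydrolase genes, 2 were tested in liver and Ephx1 was the 1 called. In kidney 0 of 2 were called by limma, with Ephx1 at 308 ± 76.3 in PB kidneys and 246 ± 47.8 in control kidneys (adjusted p 0.184). Of 11 other genes of molybdenum enzymes and cofactor synthesis, 9 were tested in liver, 1 was higher and 0 were lower: Xdh, the xanthine dehydrogenase (737 ± 61.4 in PB livers and 632 ± 82.6 in control livers, log2 difference 0.23, adjusted p 0.0362). In kidney 0 of 7 were called. Of 14 other oxidases of amines, amino acids and hydroxy acids, 6 were tested in liver, with 0 higher and 2 lower: Hao1, the glycolate oxidase of liver peroxisomes (4145 ± 243 in PB livers and 5239 ± 397 in control livers, log2 difference -0.34, adjusted p 3.11e-05), and Dmgdh, which degrades dimethylglycine (2187 ± 257 in PB livers and 2976 ± 233 in control livers, log2 difference -0.45, adjusted p 4.10e-05). In kidney 1 of 8 was higher, Hao2, a hydroxy acid oxidase of kidney peroxisomes (2182 ± 508 in PB kidneys and 1498 ± 256 in control kidneys, log2 difference 0.53, adjusted p 0.0103).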

How the data were processed

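Liver and kidney RNA of 20 mice was hybridised to 40 Affymetrix Mouse430_2 arrays. The authors processed the scans with GCOS and MAS5 and scaled each array to a trimmed mean of 150, and the deposited intensity values are those linear MAS5 signals, not log transformed. Here the mean trimmed by 2% at each end was 148.91 to 149.27 per array. Versions of GCOS and MAS5 are not given in the sources used here. Precision is limited by the number of arrays, 10 per group.

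Gene symbols came from the platform annotation: 34945 probe sets had 1 symbol, 932 several and 9160 none. Of those with 1 symbol, 34741 were matched to current symbols through their Entrez identifiers. Only probe sets with 1 symbol were named. The 9 genes, with all their probe sets, were chosen, and the neighbour and marker lists were written, with earlier results of these data known. Of each list every called gene is named where 3 or fewer were called in a direction and tissue.

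Signals under 1 were set to 1 and log2 transformed. Limma 3.58.1 in R 4.3.3 (lmFit, eBayes with trend, two-sided, Benjamini-Hochberg adjustment over all probe sets tested) compared PB with control within each tissue, where a probe set reached a mean of 50 in either group. The interaction and the contrasts of liver with kidney came from 1 fit of 40 arrays, where a probe set reached that mean in any of the 4 groups. The fit was tested on simulated data.

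The 2 tissues of an animal carry the same donor number, so the arrays are paired by animal. Deviations from the group means over 15416 probe sets gave r values of -0.0740 to 0.211 between the liver and kidney of an animal (median 0.0755), and a median of -0.0104 between different animals, and the consensus correlation of the block was 0.0504.

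Alternatives were other filters, floors, scalings and tests, all 40 arrays in 1 fit, the description number as a covariate, and each array left out in turn. One of the tests was the methods' t-test, at a p of 0.001 with a fold of 1.5. Protein sequences were not used here.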

Additional observations from a re-analysis of the deposited data

Results flagged for a closer look

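In 4 probe sets the PB effect differed between liver and kidney by limma's interaction test. The log2 effect in liver minus that in kidney was 0.54 for Fmo1 (1417429_at), and 0.68 (1450332_s_at), 0.73 (1440899_at) and 0.41 (1421709_a_at) for Fmo5.

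In 7 of the 64 sets of 10 samples examined, 1 per probe set and group, the highest or lowest sample stood apart by Dixon's gap criterion, which chance meets in about 1 of 20 sets. Maob in the kidney of PB animal 12 was 102.3, against 76.7 for the next, and this kidney also had the highest Adipoq. Fmo5 (1450332_s_at) in PB liver 17 was 3597.0, against 4471 for the next lowest, and that liver had the highest Kap of its group, at 234.0. Aox3 in control liver 2 was 4182.8, against 5576 for the next lowest. Fmo5 (1421709_a_at) in control liver 9 was 572.4, against 687 for the next lowest. Fmo2 (1453435_a_at) in control liver 3 was 77.4, against 49.9 for the next, and that liver had the second highest Kap of its group, at 221.5. The dim Maoa probe set 1442676_at was lowest at 11.9 in PB kidney 13 and at 1.1 in control liver 10.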

How the results depend on the processing

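Among the effects of single probe sets under all alternatives and omissions, 2593 of 2633 kept their direction, where called, and their side of the threshold, 39 lost a call and 1 gained one. The counts of 13 called probe sets between liver and kidney in PB mice and in control mice were the same under every alternative and omission run. With animal as a replicate block the counts were 4 for the interaction, 13 for liver against kidney in PB mice and 13 in control mice, and the block changed no call of a member. The interaction count of 4 was 3 to 5 under the other alternatives and 4 without each array in turn. In liver, the count of 6 was 5 to 6 when each array was left out, and 3 by the methods' t-test at its own thresholds (Fmo1, Aox1 and Fmo5 1440899_at). In kidney, the count of 4 was 2 without the filter, 2 by the methods' t-test after Benjamini-Hochberg adjustment, 0 by that test at its own thresholds, 1 with all 40 arrays in 1 fit, and 2 to 4 when each array was left out, with 2 reached without PB kidney 20. In the fit of 40 arrays the residual spread is shared with the livers, where the Fmo2 signals lay near or under 50. The Aox3 call in liver was also lost without the filter (adjusted p 0.0945), by the methods' t-test (0.0605), with the description number (0.0548) and with 40 arrays (0.668), and the Maob call in kidney without the filter (0.0614) and by the methods' t-test (0.0552). Over the whole table, the 627 kidney calls became 335 without the filter, 200 with 40 arrays, 419 by the methods' t-test after adjustment and 310 without the 3 kidneys rich in Adipoq. Centring on array medians changed the split of calls higher and lower in PB livers to 837 and 1439, beside 1116 and 1220, in PB kidneys to 350 and 134, beside 345 and 282, and for the interaction to 437 and 915, beside 684 and 673. Centring also moved the median log2 difference between liver and kidney over all probe sets to -0.23 in PB mice, beside -0.10, and to -0.16 in control mice, beside -0.08. Dim probe sets such as Fmo4 and Fmo2 in liver are limited by their signal over background, and their wide intervals leave room for changes of the size called in other genes.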
